A study of Sus scrofa with 9 samples.

Results

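Runs of 2 or 3 consecutive bright probes were examined on an array made to find the 5′ ends of pig microRNAs. There were 45 such runs, 29 of 2 probes and 16 of 3, which held 106 of the 440 bright probes (24.1%) and 0.845% of the 12544 probes of the array. A probe was bright when its log2 intensity in each of the 3 medium PMT scans was over that scan's median by more than 3 median absolute deviations (MAD, scaled to a normal SD). Bright probes with consecutive IDs were then joined, and runs of 2 or 3 were kept. The remaining bright probes were 56 single probes, 25 runs of 4 to 6 (117 probes) and 17 runs of 7 or more (161 probes).

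Small RNA of 20 tissues from 3 pigs (Sus scrofa, 12 months old, breed given as vietnamite) was pooled in equal amounts, polyadenylated and copied into cDNA. This 1 pool was hybridized 3 times to a CombiMatrix array, and every hybridization was read at low, medium and high gain of the scanner's photomultiplier (PMT). The 9 scans thus form 3 groups of 3 technical replicates that share all animals, tissues and RNA, and no value below measures spread between animals. The labels of all 9 scans carry a common last number, and arrays were stripped for renewed use according to the methods, so the hybridizations may share 1 array.

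MicroRNAs are short RNAs that repress messenger RNAs, and the bases close to their 5′ end, the seed, decide which messengers they pair with. A microRNA cut at a neighbouring base is an isomiR, and a shift at the 5′ end moves the seed. In the RNA-primed array-based Klenow extension assay (RAKE), polymerase extends a molecule bound to a probe only if the 3′ end of that molecule is fully paired. Here the 3′ end of the cDNA copied the 5′ end of the microRNA, and each precursor was covered by 16 probes shifted by a single base. Neighbouring probes that both light up can thus stand for neighbouring 5′ ends. The tables used here do not pair the numeric probe IDs with a precursor, a path or a sequence. Runs are therefore called by their IDs, no sequence is shown, and whether consecutive IDs lie on 1 path, and in which direction, is not known.

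The members were chosen by their medium PMT intensity, so the levels that follow are a description. The level that a probe had to exceed at medium PMT was an intensity of 11897.4 in hybridization 1, 12819.2 in hybridization 2 and 10184.6 in hybridization 3. The median intensity of the 106 probes was 25984.5, 23304 and 25834.2 in the same scans. The dimmest chosen probe exceeded the level by 1.004-fold, in run 12278-12280, and the dimmest probe of 14 runs was within 10% above it. The runs had 90 flanks, and a probe between 2 runs was counted once for each. At 18 flanks the probe was bright in 2 of the 3 medium PMT scans, at 11 in 1 and at 61 in none. In 6 runs the better flanking probe missed the level by less than 10% in the scan where it fell shortest. In all, 24 runs had a flanking probe that was bright in 1 or 2 scans. The length of a run therefore rested on the cut: at 2.5 MADs 21 of the 45 runs kept exactly their IDs, and at 3.5 MADs 16 did.

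In most runs the intensity dropped more steeply after the run than before it. The median drop at medium PMT was 2.66 (log2, 6.33-fold) to the probe before the run and 4.05 (16.5-fold) to the probe after it. Drops from an edge probe at the top of the intensity scale to a probe below it are lower bounds. The drop was steeper after the run in all 3 hybridizations in 28 runs, steeper before it in 12 and mixed in 5. All 6 runs of the repeated group described below, and run 11127-11128 of the same pattern, were among the 28. Both edges of a run were set by the cut, so these counts carry no test. Single bright probes were steeper after in 29 of 56 and before in 21, and runs of 4 to 6 were steeper after in 10 of 25 and before in 13. Whether the runs of 2 or 3 differ from these classes was not tested.

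Several bright probes reached 65535, the top of the 16-bit scale, where only a lower bound is known. Of the 106 probes, 11, 16 and 26 were at this ceiling in hybridizations 1, 2 and 3 at low PMT, 18, 23 and 29 at medium PMT, and 30, 42 and 37 at high PMT. A run had a probe at the ceiling in at least 1 scan in 13 cases at low, 18 at medium and 25 at high PMT. Among the 48 members of runs that stayed below the ceiling, high PMT multiplied the intensity over low PMT by a median of 2.86, 3.40 and 2.74 in hybridizations 1, 2 and 3. All probes gave 2.64, 3.32 and 2.76. The low PMT scans thus lose the fewest values and were used for the tests. They are other scans than those that chose the runs, but of the same hybridizations.

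The leading probe of a run is the one with the highest mean log2 intensity. Its lead is its log2 difference from the brightest other probe of the run in each scan, averaged over hybridizations. By the mean over 3 hybridizations at medium PMT, the later ID led 14 runs of 2, the earlier ID led 10, and 5 runs were tied at the ceiling. At low PMT the later and the earlier ID led 12 runs each, and at high PMT 13 and 11. In the runs of 3, the first ID led 4, the middle 5 and the last 6 at medium PMT, with 1 tied. At low PMT these counts were 5, 5 and 6, and at high PMT 3, 5 and 5. The shapes of the 16 runs of 3 at low PMT were spread in the same way, with 4 rising, 3 falling, 5 highest in the middle and 4 lowest in the middle. The later ID thus led more runs of 2 at medium and high PMT but not at low PMT. Runs of 2 with a probe at the ceiling in the setting were then left out. In the rest, the later and the earlier ID led 10 and 9 at low, 9 and 7 at medium and 7 and 5 at high PMT. The contrast between settings was thus not seen without the ceiling, and no test was made of these counts.

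The same probe led in all 3 hybridizations in 24 of 45 runs at medium PMT (53.3%), in 26 at low PMT (57.8%) and in 20 at high PMT. Without the runs that had a probe at the ceiling, it did so in 21 of 27 runs at medium PMT (77.8%), 24 of 32 at low PMT (75%) and 14 of 20 at high PMT (70%). By its mean, the same probe led at all 3 settings in 33 of the 37 runs that had a leader at each. In 18 runs the same probe led in every one of the 9 scans. Among 32 runs below the ceiling at low PMT, the leader was the same in 3 hybridizations in all 10 with a lead of 0.3 or more, in 10 of 11 with a lead of 0.1 to 0.3 and in 4 of 11 with a lead under 0.1. A small lead leaves room for the order to change, so this last comparison is partly fixed by its construction.

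Leads were small in most runs. In runs without a ceiling value, the median lead was 0.19 (log2) at low, 0.14 at medium and 0.12 at high PMT, and its median SD over hybridizations was 0.064, 0.061 and 0.069. With all runs that had a leader, where tied probes at the ceiling enter as a lead of 0, the medians were 0.18, 0.16 and 0.12 with SDs of 0.085, 0.080 and 0.073. Below the ceiling at low PMT, the difference between neighbouring members had a median SD of 0.080, against 0.63 for the level of the same pairs after the scans were scaled to a common median. The SD of levels depended on the scaling. For whole runs, those at the ceiling included, its median at low PMT was 0.64 with the scaling and 0.34 without it. Scaled to the median, hybridization 1 was over 2-fold above both others in 15 runs at low PMT, and unscaled it was so in 1 run and over 2-fold below both in 4. Levels between hybridizations are therefore not interpreted, while differences within a scan do not change with such a scaling.

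The difference between neighbouring probes was then tested with limma in the low PMT scans over all 12543 pairs of consecutive IDs. Of the 61 pairs inside the runs, 24 (39.3%) passed an adjusted p of 0.05, 14 with the later ID higher and 10 with the later ID lower. Over all pairs 53.3% passed, 25.7% with the later ID higher and 27.5% with the later ID lower. Among pairs without a probe at the ceiling at low PMT, 23 of 45 member pairs (51.1%) passed, against 53.6% of all pairs. Member pairs were chosen by their brightness, so the smaller share is no result about the runs, and its cause was not tested. With all pairs tested, at least 1 pair passed in 19 runs. These included 6 runs of 2 with the later and 5 with the earlier probe higher, and 5 runs of 3 in which both pairs passed. Among pairs below the ceiling, the smallest difference that passed was 0.18 (log2) and the largest that missed was 0.33. The count was lowest without hybridization 2, where 9 member pairs (14.8%) passed. Without hybridization 1 it was 21 (34.4%), and without hybridization 3 it was 17 (27.9%). Over all pairs 19.8% passed without hybridization 2, 50% without hybridization 1 and 33.9% without hybridization 3. The drop without hybridization 2 was thus seen over the whole array.

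Pairs kept their order in all 3 hybridizations in 62.3% of the member pairs at low PMT, against 77.9% of all pairs. Without pairs at the ceiling the shares were 77.8% and 78.2%. In runs of 4 or more, 81.4% of the pairs below the ceiling kept their order. The steadiness of the order in runs of 2 or 3 was thus close to that over the whole array.

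Whether a difference inside a run changed with the PMT setting was tested between high and low PMT. None of the 61 pairs passed in limma without a block (0 called, 7 at an unadjusted p under 0.05), against 0.0797% of all pairs. With the hybridization as a block, 4 pairs passed, 2 in each direction, against 1.08% of all pairs. All 4 had a probe at the ceiling at high PMT, and 0 of the 30 pairs without such a probe passed with the block, against 1.2% of all pairs below the ceiling.

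Among runs of 2 led by the later ID, run 12260-12261 had the largest lead of those below the ceiling at low PMT. Probe 12261 gave intensities of 47911, 25244 and 17858 in hybridizations 1, 2 and 3, and probe 12260 gave 12992, 9000 and 6914.5. The later probe was higher in every hybridization, and its lowest value exceeded every value of the earlier probe. The lead was 1.58 ± 0.12 (log2 ± SE, n = 3, limma adjusted p = 0.0028). Run 2169-2170 followed with a lead of 0.40 ± 0.045 (limma adjusted p = 0.0057). Probe 2170 gave 14339, 11459 and 13091, and probe 2169 gave 10614.5, 8832 and 9984.5. The later probe was higher in each hybridization. Without hybridization 2 the lead was 0.41 and did not pass (limma adjusted p = 0.0603).

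Among runs of 2 led by the earlier ID, the largest leads were in runs 11414-11415 and 1232-1233. Probe 11414 gave 20764.5, 35717.5 and 37090.5 at low PMT, and probe 11415 gave 9361, 14633 and 12966. The earlier probe was higher in each hybridization. The later minus the earlier probe was -1.32 ± 0.089 (log2 ± SE, limma adjusted p = 0.0022). In run 1232-1233, probe 1232 gave 30469, 23567 and 17554, and probe 1233 gave 10519.5, 8881 and 9833. The difference was -1.26 ± 0.16 (limma adjusted p = 0.0076). Without hybridization 2 it was -1.19 and did not pass (limma adjusted p = 0.0589).

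Runs of 3 are named by the largest lead for each leading position. Run 1773-1775 was led by its last ID, with 32489, 22785.5 and 18944.5 for probe 1775 at low PMT, 12270.5, 8047.5 and 7777 for probe 1774, and 16846, 12701.5 and 10454 for probe 1773. The middle probe was the lowest in every hybridization, so that 2 bright probes stood on either side of a dimmer one. Probe 1775 exceeded probe 1774 by 1.40 ± 0.063 (log2 ± SE, limma adjusted p = 0.001), and probe 1774 was below probe 1773 by a difference of -0.51 ± 0.068 (limma adjusted p = 0.0081). Without hybridization 2 the step between probes 1773 and 1774 was -0.44 and did not pass (limma adjusted p = 0.0547).

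Run 951-953 was led by its middle ID. Probe 952 gave 43570.5, 35246 and 33685.5 at low PMT, probe 951 gave 32002, 26438 and 23961.5, and probe 953 gave 19109, 14241.5 and 19046.5. The order was the same in each hybridization. The first step was 0.45 ± 0.046 (log2 ± SE, limma adjusted p = 0.0048) and the second was -1.11 ± 0.11 (limma adjusted p = 0.0049). Without hybridization 2 the first step was 0.47 and did not pass (limma adjusted p = 0.0515). At high PMT probes 951 and 952 were at or near the ceiling, and their difference was 0.003.

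The largest lead of a first ID in a run of 3 was only 0.15 (log2), in run 4101-4103. Probe 4101 gave 8417.5, 11802.5 and 16994.5 at low PMT, probe 4102 gave 7327, 10420 and 16109, and probe 4103 gave 7195, 8825 and 14550. The 3 probes fell in the same order in each hybridization. Neither step passed the test (limma adjusted p = 0.0731 and 0.138).

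The smallest leads at low PMT were those of runs 520-522 and 4368-4369, and they arose in different ways. In run 520-522 all probes were alike at low PMT. Probe 520 gave 7926.5, 10205 and 9204, probe 521 gave 7770, 10420 and 8825, and probe 522 gave 7573.5, 9803.5 and 9115. The lead was 0.0042 (log2), and it changed hands in hybridization 2. By mean log2 intensity alone, probe 520 exceeded probe 521 by 0.020 at low PMT. This is slightly more than the 0.019 between the probes of run 2151-2152, so the place of run 520-522 in this ranking depends on how the lead is defined. At medium PMT probe 520 led in every hybridization, with a mean lead of 0.11. In run 4368-4369 the probes differed clearly but not always in the same direction. Probe 4369 gave 15811, 30909 and 37154 at low PMT, and probe 4368 gave 9640, 39919.5 and 48180. The later probe was thus higher in hybridization 1 and lower in hybridizations 2 and 3, with a mean difference of -0.01 ± 0.27 (log2 ± SE, limma adjusted p = 0.977). Medium PMT gave the same opposite order, with 28484.5, 50013 and 56272 for probe 4369 and 17242.5, 64213 and at least 65535 for probe 4368. Without hybridization 1 the difference at low PMT was -0.37 and passed (limma adjusted p = 0.0174).

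The runs described from here on were picked after their values had been seen. Runs 10588-10589 and 10591-10593, separated by a single ID, were at the ceiling at low PMT in hybridization 3 only, where all 5 probes gave 65535. The probe between the runs gave 14163, 11464 and 65535 in hybridizations 1, 2 and 3 at medium PMT. It missed the level of 12819.2 in hybridization 2 only, so the split into 2 runs rested on that scan. Probe 10587, just before the first run, was also at 65535 in hybridization 3 at medium PMT. In that scan, IDs 10587 to 10593 were thus at the ceiling without a gap. In hybridizations 1 and 2 at low PMT, probe 10588 gave 16365 and 19306 and probe 10589 gave 9417 and 8088. Run 10899-10900 gave 65535 and 63259 in hybridization 3, against 18029 and 15898.5 in hybridization 1 and 34512 and 28825 in hybridization 2. These intensities are unscaled. After scaling to the scan median, hybridization 3 exceeded the next highest hybridization at low PMT by 1.14 (log2) in run 10588-10589, 0.29 in run 10591-10593 and 0.59 in run 10899-10900. These excesses are lower bounds, since each run had a probe at 65535 in hybridization 3 at low PMT. At medium and high PMT every probe of these runs was at 65535 in hybridization 3, so that only a lower bound is known there too. The lead in hybridization 3 is a bound or not known at all.

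A group of 6 runs of 2 repeated 1 intensity pattern. Runs 68-69, 1722-1723, 3950-3951, 8106-8107, 11130-11131 and 12384-12385 shared their profile of log2 intensity over 20 consecutive IDs, the 5 before the run included, with a Pearson's r of 0.9982 to 0.9997 in the 15 pairs. No other stretch of this length correlated with their mean profile above 0.875. In each of the 6 places, the second ID before the run was at 57158.1 or more (geometric mean at low PMT), the ID between it and the run at 1376.2 to 2418.6, and the ID just after the run at 460.7 to 673. The pattern was a lone bright probe, a dim probe, a bright pair and a sharp drop.

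In 5 of these 6 runs, both probes were at 65535 in all 3 low PMT scans, and these are the 5 runs of 2 that had no leader. Only run 68-69 fell below the ceiling, with 27936.5, 62587 and 65535 for probe 68 and 22286.5, 65085 and 65535 for probe 69, and its leader differed between hybridizations 1 and 2. Counted as 1 run, the group leaves 40 runs, of which 24 (60%) had the same leader in all 3 hybridizations at medium PMT, and 56 pairs, of which 24 (42.9%) passed at low PMT. Run 11127-11128 belongs to the same pattern, since it holds the lone bright probe before run 11130-11131. Probe 11128 was at 65535 in every scan and probe 11127 at 10428.5, 8155.5 and 7020 at low PMT. The lead of 2.96 (log2) was therefore a lower bound. At the other 5 places only the brighter of these probes passed the cut.

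A longer repeat gave a second look at 5 runs. IDs 112 to 444 and IDs 12046 to 12378, 333 in each stretch, gave log2 intensities that correlated at 0.981 (Pearson's r across probes; probes are no replicates of each other). No other stretch that neither overlapped the first nor lay within 16 IDs of this shift correlated with it above 0.43. Intensities in the second stretch were higher by a median of 0.52 (log2). Whether the probes of the 2 stretches have the same sequence is not given in the tables used here.

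At the matching place, leads of 0.3 or more at low PMT were found again, and those under 0.1 were not. A small lead leaves room for the order to change, so this comparison of few runs is also partly fixed by its construction. Run 12260-12261 led by its later ID with 1.58 at low PMT, and IDs 326 and 327 had a lead of 1.70 in the same direction. For IDs 12309 and 12310 the later ID led by 0.38, and for IDs 375 and 376 by 0.35. In both cases the later ID led in each of the 9 scans at each place. The lead of run 335-336 was 0.058, that of run 338-340 was 0.036 and that of run 12278-12280 was 0.047. In all 3 the matching place was led by another position at low PMT. At medium PMT the later ID led both run 335-336 (0.0304) and its match (0.0325), and at high PMT their leaders differed. The length of the run was not kept in any of the 5 cases. The matches of runs 335-336 and 338-340 lay inside a bright run of 8 probes, those of runs 12260-12261 and 12309-12310 were single bright probes, and that of run 12278-12280 held 0 bright probes.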

How the data were processed

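The authors quantized 16-bit images with the CombiMatrix imager software and deposited linear Cy3 intensity per probe for 9 scans; for any background subtraction or scaling of scans, the method was not given in the sources used here. The values step by 0.5, and 0 columns were left unused. The number of hybridizations limits the precision. Groups came from the sample labels.

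Values were taken as log2 without scaling. For each pair of consecutive IDs the difference (later minus earlier) was tested against 0 by lmFit and eBayes of limma 3.58.1 in R 4.3.3, two-sided, with Benjamini-Hochberg adjustment over all 12543 pairs. Pairs that share a probe are not independent, and p-values measure technical spread only. The change with PMT was a contrast of high and low scans. The scripts were tested on simulated data. Python 3.11.15, numpy 2.4.6 and pandas 2.3.3 gave runs and leads.

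The replicate number in the labels names the hybridization and joins its scans. Residuals of the pair differences from the mean of their setting correlated at 0.855 to 0.927 within hybridizations (9 scan pairs). Between hybridizations they correlated at -0.722 to -0.010 (18 pairs). Such residuals cancel out over the hybridizations of a setting, so the negative values follow largely from their construction. Because of the correlation within hybridizations, the block was set beside the result it moved.

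The named runs were, of those without a low PMT ceiling value, the 2 runs of 2 with the largest lead of the later and of the earlier ID, the run of 3 with the largest lead at each position, and the 2 smallest leads. The members, lists and rules were chosen with earlier results of these data known. Repeated stretches were searched on mean log2 intensity at low PMT, with flanks of 8 IDs per side, an r of 0.95 or more and a root mean square difference under 2-fold; only the 6-run group and the 333-ID repeat are reported, since smooth flanks also matched elsewhere. Alternatives were other cuts, other settings, background corrections, quantile normalization, the ceiling and single hybridizations left out.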

Additional observations from a re-analysis of the deposited data

Results flagged for a closer look

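Run 2151-2152 had opposite orders at high and low PMT in every hybridization. The later minus the earlier probe averaged -0.088 (log2) at high PMT and 0.019 at low PMT. At high PMT the earlier probe led by 0.2275, 0.0245 and 0.0111 in hybridizations 1, 2 and 3, so most of that average came from hybridization 1. At medium PMT the later probe led by 0.0156, 0.0211 and 0.0297, the same order as at low PMT. The difference between the settings did not pass in limma without a block, which ignores that the scans are paired (limma adjusted p = 1). With the hybridization as a block it did not pass either. All 4 pairs that passed with the block had a probe at the ceiling at high PMT, and run 2151-2152 had none.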

How the results depend on the processing

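The count of 45 runs was 31 to 51 under the other cuts, settings and background treatment, and 43 to 47 when a hybridization was left out. The same leader in all hybridizations was found in 14 of 31 runs with a cut of 3.5 MADs, where fewer runs were left, and in 34 of 51 with a cut of 2.5 MADs, against 24 of 45 at 3 MADs. It was found in 28 of 45 whichever hybridization was left out. The later ID led 11 to 15 of 29 runs of 2 under all alternatives. Member pairs called at low PMT numbered 9 to 21 when a hybridization was left out and 18 to 25 under the other alternatives. With the settings averaged within each hybridization, 23 were called. Over all pairs, 19.8% to 50% passed when a hybridization was left out and 52.7% to 60.9% under the other alternatives. The change between settings had 4 calls with the replicate block and 0 to 0 when a hybridization was left out. The median SD of the lead was 0.046 to 0.084 without a hybridization.

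Of the named pairs, IDs 520 and 521 gave -0.045 to 0.0007 and IDs 521 and 522 -0.063 to 0.0048 when a hybridization was left out, so both signs turned. IDs 4368 and 4369 turned to 0.048 at medium PMT, 0.32 at high PMT and 0.089 after quantile normalization. They turned to 0.12 with the settings averaged within each hybridization, to 0.17 without hybridization 2 and to 0.17 without hybridization 3. None of these passed. Leaving out hybridizations gave -0.37 to 0.17. Without hybridization 2 the differences of runs 2169-2170 (0.41) and 1232-1233 (-1.19) and the first steps of runs 951-953 (0.47) and 1773-1775 (-0.44) no longer passed (limma adjusted p = 0.0603, 0.0589, 0.0515 and 0.0547). The causes were not tested. The ceiling limits all leads above it, and 3 technical replicates of 1 pool limit the precision.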
